A study of Mus musculus with 5 samples.

Results

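The S100 genes encode small calcium-binding proteins, and 10 of them (S100a1, S100a4, S100a6, S100a8, S100a9, S100a10, S100a11, S100a13, S100a14 and S100a16) were followed here among 19938 genes measured on 5 mouse gene arrays. Each was taken as the probe set (the group of probes read as 1 value) whose symbol is exactly that of the gene, and a gene with more than 1 was read from its brightest on average. The arrays were hybridised with total RNA from male mice of about 10 months kept on regular food. Of these, 2 came from normal livers of control mice (Hdac3FL/+; AlbCre+) and 3 from liver tumours of null mice (Hdac3FL/-; AlbCre+). All mice carried Cre recombinase driven by the albumin promoter, which acts in hepatocytes and deletes floxed Hdac3, a histone deacetylase, so control hepatocytes retain a single wild-type allele. Genotype and tumour tissue cannot be told apart, because every null sample was a tumour and every control was normal tissue. The labels speak of biological replicates and do not say whether each tumour came from a different mouse, so p-values measure only the spread between these samples.

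S100 proteins carry calcium-binding helix-loop-helix motifs called EF-hands. Most form dimers that open on binding calcium and then grip a target protein, such as an annexin at a membrane, a myosin or another cytoskeletal protein, and several are also secreted and act on cell-surface receptors. S100a8 and S100a9 together form calprotectin, an abundant protein of neutrophils and monocytes. S100a10 is unusual in having lost calcium binding and is held at membranes by annexin A2.

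Values are log2 expression values as deposited, and a change is the tumour mean minus the control mean on that scale, so 1 unit is a doubling. Array medians lay between 5.66 and 5.77. Hdac3, the deleted gene, read 8.21 and 8.37 in the control livers against 6.78, 6.57 and 6.65 in the 3 tumours. Where the Hdac3 probes lie relative to the deletion was not analysed here. All samples were liver or liver tumour, so the tissue label could not be tested with hepatocyte markers. The mean log2 value of 10 measured hepatocyte markers was 12.25 and 12.31 in the controls. It ranged from 10.44 to 11.70 in the tumours. The list's median change was −0.49, beside −0.02 over all genes. For 7 of the 10, every tumour was below both controls, beside 23.1% of all genes. Alb, Fgb and Tat had overlapping groups, with changes of −0.12, −0.06 and −0.25. Ttr (transthyretin) was the 1 of the 10 called, and fell by 0.71, beside 4.96% of all genes fallen. An unadjusted p under 0.05 was found for 4 of the 10, beside 5023 of all 19938 genes. Cyp2e1 read 13.06 and 12.98 in the controls and 11.49, 8.87 and 4.10 in the tumours, a change of −4.87 that did not pass (limma adjusted p = 0.197). Cyp7a1, of bile acid synthesis, and Pck1, of gluconeogenesis, stood at −3.67 and −2.41 and did not pass either (0.062 and 0.191). The call of Ttr was lost with quantile normalisation repeated (0.0581), with the replicate block (0.0622) and when any array other than tumour 3 was left out (limma adjusted p from 0.0597 to 0.271). Some of these settings called other markers of the list. With the replicate block 2 of the 10 fell, and 1 fell without tumour 1 and 1 without tumour 2. In whole tissue, fewer cells of a type and less RNA per cell cannot be told apart.

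Of the 10 S100 genes, S100a11, S100a10 and S100a6 rose, S100a1 fell, and 6 did not pass the test (limma across all 19938 genes, adjusted p under 0.05). Over all genes, 5.60% rose and 4.96% fell, 10.6% in either direction. The median change of the 10 genes was 0.26, beside −0.02 over all genes. Every tumour lay above both controls for 3 of the 10, beside 21.1% of all genes, and below both controls for 2 (S100a1 and S100a13), beside 23.1% of all genes. For the other 5 the groups overlapped. The rises and the fall thus came from a few genes of the family, and the rest lay close to their control values or varied between tumours.

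**Figure D1:**
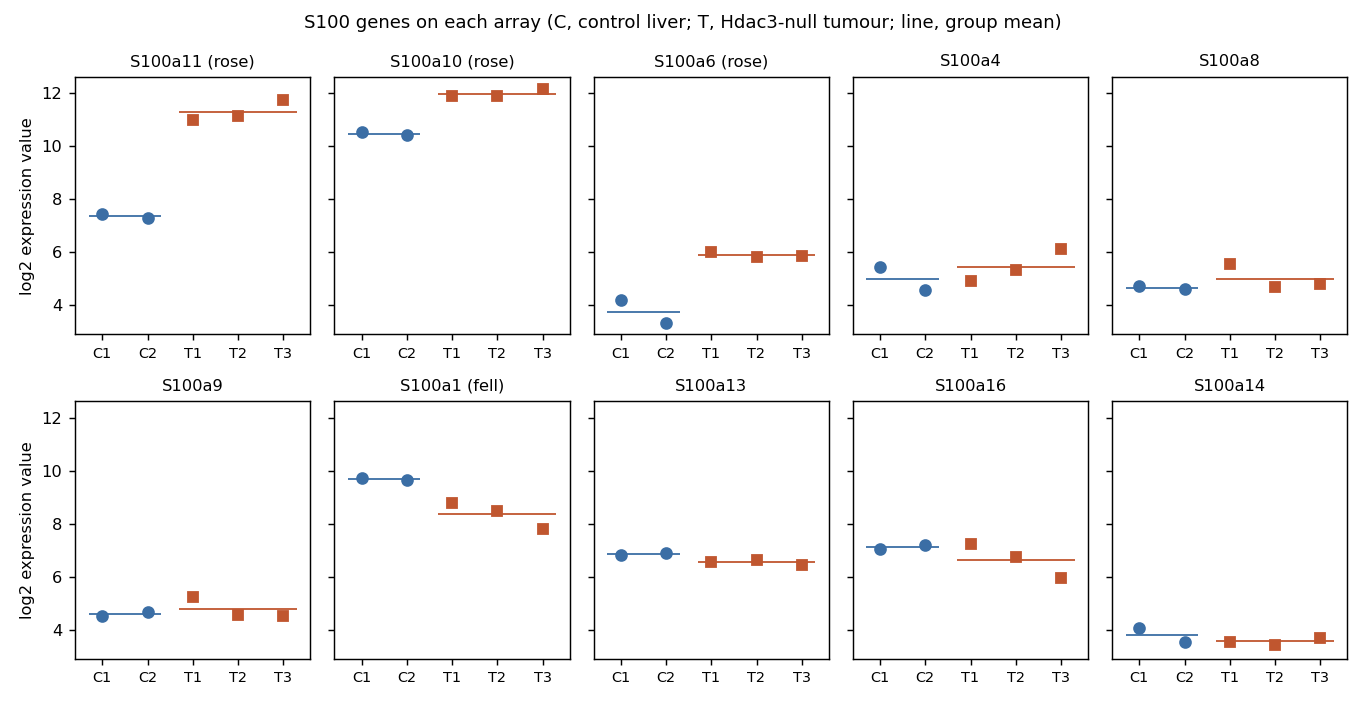
Log2 expression value of each S100 gene on each array (circles, 2 control livers; squares, 3 Hdac3-null tumours; horizontal lines, group means). All 3 tumours lie above both controls for S100a11, S100a10 and S100a6 and below both for S100a1 and S100a13, and the groups overlap in the other 5 panels.

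S100a11, which binds annexin A1 and is found in the cytoplasm and nucleus of epithelial cells, differed the most. Control livers had log2 values of 7.45 and 7.29, while tumours 1, 2 and 3 had 10.98, 11.14 and 11.74. The groups were far apart: the lowest tumour stood 3.53 above the higher control, and the spread was 0.15 within the controls and 0.76 within the tumours. The change was 3.92 (SE 0.24, 95% confidence interval from 3.32 to 4.52, with n = 2 and 3, and limma adjusted p = 0.00126), a 15.1-fold rise. In rank, S100a11 moved from percentile 72.5 of all genes by control mean to percentile 99.0 by tumour mean. The call held with any of the 5 arrays left out (highest limma adjusted p 0.0446).

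S100a11 was the 1 gene of the 10 with 2 probe sets. The second gave 7.24 and 7.16 in the controls and 10.96, 11.11 and 11.71 in the tumours, within 0.21 of the first on every array, and a change of 4.06. None of the 8 named probe sets numbered nearest to the one used belongs to a gene of chromosome 3, where S100a11 lies, against all 8 for the second. The gene table also lists a pseudogene, S100a11-ps, so signal from a near-identical copy cannot be told apart from that of S100a11 by these values.

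The promoter window of S100a11, 250 bases before to 50 after the annotated start (RefSeq, GRCm38.p6, chr3:93520246-93520545, plus strand), is shown because it belongs to the gene with the largest difference. Capitals mark exact matches to the AP-1 motif TGANTCA and to the GC box GGGCGG, searched on both strands.

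S100a11 promoter: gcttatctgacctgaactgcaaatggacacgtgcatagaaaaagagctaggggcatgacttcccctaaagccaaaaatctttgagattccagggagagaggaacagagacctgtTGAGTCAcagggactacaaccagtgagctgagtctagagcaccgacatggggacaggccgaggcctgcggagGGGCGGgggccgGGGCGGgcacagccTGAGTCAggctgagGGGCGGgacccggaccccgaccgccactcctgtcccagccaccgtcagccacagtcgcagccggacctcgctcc

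This window held 2 AP-1 matches, beginning at positions −136 and −38 from the start, and 3 GC boxes, with no overlap between them. Since the AP-1 pattern TGANTCA reads the same on both strands, each match was counted once. Of 32851 mouse promoter windows of the same length, 7.81% held an AP-1 match and 35.66% a GC box. Promoter entries were found for 8 of the 10 genes, in 9 windows, S100a16 having 2. S100a10 and S100a14 had no entry. Apart from S100a11, an AP-1 match was found only in a window of S100a16, a gene that did not pass the test. A match describes letters and does not show a binding site.

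S100a10, the calcium-independent partner of annexin A2, was already bright in control liver. It had log2 values of 10.53 and 10.41 in the controls and 11.89, 11.90 and 12.17 in the tumours. No tumour came within 1.36 of a control, and the tumours differed among themselves by 0.28. The change was 1.52 (SE 0.14, 95% confidence interval 1.17 to 1.87, limma adjusted p = 0.00413), a 2.86-fold rise. The gene stood at percentile 97.1 of control means and at percentile 99.7 of tumour means. The call was lost without control 1 (limma adjusted p = 0.0656) or control 2 (0.0802), with changes of 1.58 and 1.45.

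S100a6, or calcyclin, binds the calcyclin-binding protein Cacybp and several annexins. It was dim in control liver, with log2 values of 4.19 and 3.34, and stood at 6.02, 5.80 and 5.87 in the tumours. The tumours lay within 0.22 of one another, and the controls differed by 0.85. The change was 2.13 (SE 0.26, 95% confidence interval 1.50 to 2.76, limma adjusted p = 0.00815), or 4.39-fold. Both control values lay under the lower quartile of their arrays, whose mean was 4.34, so they were not shown to be above background and the size of the rise is uncertain. The call was lost without control 2 (limma adjusted p = 0.056). The S100a6 window is shown as that of a second risen gene, with the only capitals at a match to the CCAAT box CCAAT on the opposite strand (RefSeq, GRCm38.p6, chr3:90612644-90612943, plus strand).

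S100a6 promoter: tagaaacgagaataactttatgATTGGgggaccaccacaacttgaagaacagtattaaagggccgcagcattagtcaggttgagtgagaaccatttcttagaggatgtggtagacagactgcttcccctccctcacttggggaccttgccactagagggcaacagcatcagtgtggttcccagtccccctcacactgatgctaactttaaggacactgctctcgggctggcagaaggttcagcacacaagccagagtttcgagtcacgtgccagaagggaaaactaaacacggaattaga

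A CCAAT match was present in 37.41% of the 32851 windows, and the S100a6 window held none of the other 5 motifs searched. These were AP-1 (TGANTCA), the GC box (GGGCGG), the antioxidant response element (TGANNNNGC), the TATA box (TATAAA) and TEAD (GGAATG). No motif was found both in the S100a11 window and in the S100a6 window.

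S100a1, best known as a regulator of calcium release and uptake in heart and skeletal muscle, was the only one of the 10 to fall. Control livers gave log2 values of 9.74 and 9.65, and tumours 1, 2 and 3 gave 8.78, 8.48 and 7.81. Tumour 3 was the lowest, and the highest tumour was 0.87 under the lower control. The change was −1.34 (SE 0.29, 95% confidence interval −2.04 to −0.63, limma adjusted p = 0.0399), 2.53-fold lower. The limma adjusted p was 0.251 without control 1, 0.24 without control 2, 0.0874 without tumour 2 and 0.053 with quantile normalisation repeated. The S100a1 call was lost in 5 of 14 alternatives, that of S100a10 in 3 of 14, of S100a6 in 2 of 13 and of S100a11 in 1 of 14, always including a test without moderation, which uses the spread of each gene alone.

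S100a13, which takes part in the release of Fgf1 from cells, lies head to head with S100a1 in the gene table. Log2 values of 6.83 and 6.89 were measured in control livers and of 6.56, 6.61 and 6.44 in the tumours. All tumours lay below both controls, by at least 0.22, but the change of −0.33 (95% confidence interval −0.63 to −0.02) did not pass (limma adjusted p = 0.168). Fgf1 itself fell, from 7.42 and 7.97 to 5.79, 4.78 and 4.52, a change of −2.67 (limma adjusted p = 0.0145). Fgf1 no longer passed when either control was left out (limma adjusted p = 0.114 and 0.161). The promoter windows of S100a1 and S100a13 share 204 bases on opposite strands. The S100a1 window (RefSeq, GRCm38.p6, chr3:90514281-90514580, minus strand) is printed for this pair and has no capitals, since none of the 6 motifs was found in it or in that of S100a13.

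S100a1 promoter: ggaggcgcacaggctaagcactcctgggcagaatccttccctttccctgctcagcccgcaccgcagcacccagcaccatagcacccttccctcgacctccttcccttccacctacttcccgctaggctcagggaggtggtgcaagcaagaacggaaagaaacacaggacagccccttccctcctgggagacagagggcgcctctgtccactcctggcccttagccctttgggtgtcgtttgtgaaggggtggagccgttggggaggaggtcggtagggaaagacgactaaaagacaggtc

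GC content was 61.0% in the S100a1 window, 59.3% in that of S100a13, 61.7% in that of S100a11 and 49.3% in that of S100a6, beside a median of 52.7% over all windows. Of the risen genes, S100a11 thus had a window richer and S100a6 a window poorer in G and C than that median. S100a10 had no window to compare.

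The genes of calprotectin were near the dim end of the arrays. S100a8 had log2 values of 4.71 and 4.62 in the controls and 5.54, 4.69 and 4.79 in the tumours, and S100a9 had 4.53 and 4.66 against 5.22, 4.55 and 4.53. In both, tumour 1 was the highest sample and the other tumours stood at or near the controls. The changes were 0.35 (95% confidence interval −0.32 to 1.01, limma adjusted p = 0.511) for S100a8 and 0.17 (−0.41 to 0.75, limma adjusted p = 0.736) for S100a9. Without tumour 1 they came to 0.08 and −0.06, so the sign of the S100a9 change rests on that tumour. Their control means stood at percentiles 25.6 and 24.3 of all genes.

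Markers of neutrophils, the main source of calprotectin, were compared beside them. Of 15 measured markers, 2 rose and 0 fell, beside 5.60% and 4.96% of all genes. The list's median change was 0.06, beside −0.02 over all genes. The mean log2 value of the list was 4.76 and 4.75 in the controls and 5.16 to 5.38 in the tumours, and was highest in tumour 1. The risen genes were Lcn2 (5.47) and Il1b (1.49), whose changes were the largest of the list and weigh on its mean. Other cells also make both, Lcn2 being an acute-phase gene of hepatocytes. The Lcn2 call held with any array left out, and that of Il1b was lost without control 1, control 2 or tumour 2 (limma adjusted p from 0.057 to 0.224). Of the other 13 markers, 11 had overlapping groups, with changes between −0.25 and 0.18, among them Ly6g, Mpo, Elane, Ngp, Camp and Ltf. The receptor genes Csf3r and Cxcr2 were above both controls in every tumour and, like S100a8 and S100a9, highest in tumour 1, and did not pass (changes of 0.58 and 0.27, limma adjusted p = 0.16 and 0.421). Csf3r, which encodes the receptor of granulocyte colony-stimulating factor, had log2 values of 5.42 and 5.14 in the controls and 6.16, 5.89 and 5.53 in the tumours. Both group means lay under the lower quartile for 4 of the 15, Ly6g, Ngp, Mmp8 and Cxcr2. Cxcr2 was under it on all 5 arrays and was not shown to be above background. Its lowest tumour was only 0.025 above the higher control. Whether neutrophils contributed to the values in tumour 1 was not tested.

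S100a4, or metastasin, binds non-muscle myosin and is expressed by fibroblasts, macrophages and T cells as well as by many carcinoma cells. It had log2 values of 5.44 and 4.57 in the controls and 4.91, 5.31 and 6.12 in the tumours. Tumour 3 was above both controls and tumours 1 and 2 lay between them. The change of 0.44 (SE 0.42, 95% confidence interval −0.57 to 1.46) did not pass (limma adjusted p = 0.591). It was 0.00 without control 2 and 0.88 without control 1.

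S100a16, a widely expressed member, varied most among the tumours. Controls gave 7.05 and 7.18 and tumours 7.22, 6.72 and 5.93, a range of 1.29 in the tumours against 0.13 in the controls. Tumour 1 was above both controls and the others were below them, and the change of −0.49 (95% confidence interval −1.38 to 0.40) did not pass (limma adjusted p = 0.483). It was −0.14 without tumour 3 and −0.79 without tumour 1. S100a14, a gene of surface epithelia, was under the lower quartile on all 5 arrays, at 4.06 and 3.54 in the controls and 3.54, 3.43 and 3.69 in the tumours, and was not shown to be above background. Its change was −0.24 (limma adjusted p = 0.505).

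Among the 3 tumours, S100a16, S100a4 and S100a1 differed most, with ranges of 1.29, 1.21 and 0.97. The range was only 0.18 in S100a13, 0.22 in S100a6, 0.26 in S100a14 and 0.28 in S100a10. S100a9 read 4.55 and 4.53 in tumours 2 and 3. Which tumour was highest or lowest in such genes rests on small differences. Tumour 3 had the highest tumour value of S100a11, S100a10, S100a4 and S100a14 and the lowest of S100a1, S100a13, S100a16 and S100a9. Tumour 1 had the highest tumour value of S100a8, S100a9, S100a6, S100a1 and S100a16. Several marker lists also differed between these tumours. The mean log2 value of 10 T and NK cell markers was 4.62 and 4.57 in the controls, 4.99 and 4.99 in tumours 1 and 2 and 6.15 in tumour 3, with 0 of the 10 called by limma (0 to 3 risen over the alternatives) and 2 at an unadjusted p under 0.05. For 7 of these 10 T and NK cell markers, every tumour was above both controls, beside 21.1% of all genes. The mean log2 value of 14 markers of stellate cells and fibroblasts was 6.70 and 6.61 in control livers. It was 7.79 in tumour 1, 7.20 in tumour 2 and 6.37 in tumour 3. Of the 14, 2 rose and 0 fell, beside 5.60% and 4.96% of all genes, with a median change of 0.55. The risen genes were Acta2 (2.44) and Vim (1.92), and both calls were lost without control 1 or control 2. More of the list rose in other settings, 6 with the replicate block, 5 with array weights, 4 without tumour 3 and 3 without tumour 1. A test without moderation called 0 of them. Every tumour was above both controls for 7 of the 14, beside 21.1% of all genes. Reln (−1.64) was the 1 below both controls in every tumour, and did not pass. Dcn (−0.96), Lrat (−0.96) and Hand2 (−0.31) also went down, with overlapping groups. The part of T cells, NK cells, stellate cells and fibroblasts in the S100 values was not tested.

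**Figure D2:**
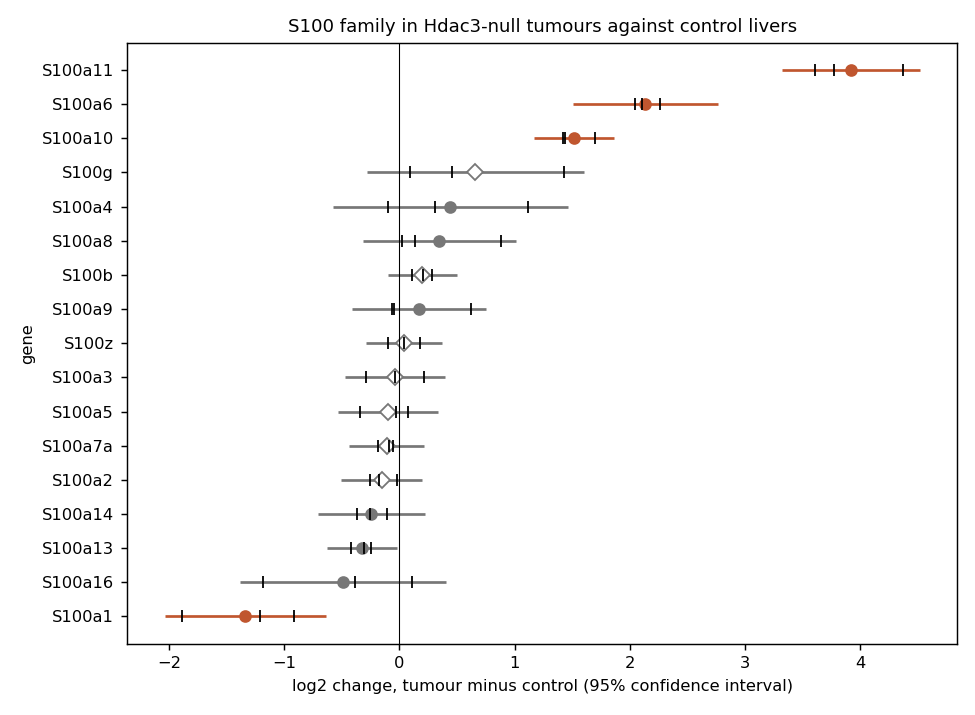
Log2 change, tumour minus control, of the 17 measured S100 family genes (filled circles, the 10 genes described; open diamonds, 7 other family genes; horizontal lines, 95% confidence intervals; black ticks, each tumour minus the control mean; orange, adjusted p under 0.05). S100a11, S100a6 and S100a10 stand to the right at 3.92, 2.13 and 1.52, S100a1 to the left at −1.34, and the intervals of 12 of the other 13 genes include 0.

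The 7 other measured family genes, S100a2, S100a3, S100a5, S100a7a, S100b, S100g and S100z, had 0 calls by limma in either direction and 0 at an unadjusted p under 0.05. Their changes ran from −0.15 for S100a2 to 0.66 for S100g, with a median of −0.04. S100g, the intestinal calcium carrier calbindin-D9k, had log2 values of 5.45 and 5.30 in the controls and 6.80, 5.83 and 5.46 in the tumours, the tumours all being above both controls (limma adjusted p = 0.364). Its change was 0.27 without tumour 1. S100b, a marker of glia and nerve sheath, was also above both controls in every tumour, with a change of 0.20 (limma adjusted p = 0.394). The other 5 had overlapping groups. Of 6 measured S100-fused genes of skin (Flg2, Hrnr, Rptn, Crnn, Tchh and Tchhl1), 0 were called by limma, with changes from −0.29 to 0.09, and 1 had an unadjusted p under 0.05, Tchhl1.

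All 10 genes lie on chromosome 3, and their neighbours were examined because the family is clustered there. From S100a1 to S100a10 the gene table (GRCm38.p6) places 62 tested genes: the 10 members, 4 other S100 genes and 48 genes of other families. S100a1 to S100a9 form an unbroken run of 12 tested genes, and 48 genes, mostly of the skin barrier, separate S100a9 from S100a11 and S100a10, which are adjacent. Of the 48 genes, 1 rose and 1 fell, beside 5.60% and 4.96% of all genes. Their median change was −0.02, beside −0.02 over all genes. The risen gene was Sprr1a, a cornified envelope precursor, with log2 values of 5.28 and 5.33 in the controls and 9.52, 9.83 and 9.92 in the tumours, a change of 4.45 (limma adjusted p = 0.000324). Lce1a2, of the late cornified envelope, fell by 0.60 (limma adjusted p = 0.0313), but both of its means were under the lower quartile, as for 27 of the 48. S100a6 stood at 2.13 between S100a5 (−0.10) and S100a7a (−0.11), which did not pass (limma adjusted p = 0.802 and 0.688). Among the 5 tested genes on each side, 1 of the 10 was called, beside 10.6% of all genes. It was Them4, which fell by 0.77 (limma adjusted p = 0.0372). The call of Sprr1a held with any array left out, and those of Lce1a2 and Them4 were lost with the replicate block (0.0614 and 0.0766) and when any array other than tumour 3 was left out (limma adjusted p from 0.0504 to 0.253).

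**Figure D3:**
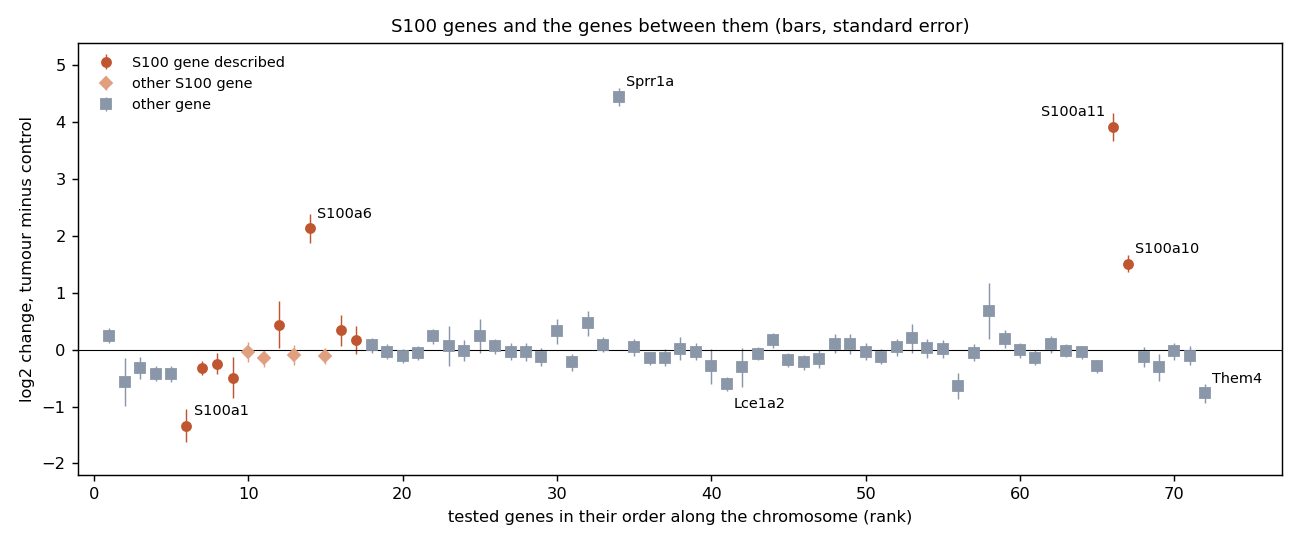
Log2 change, tumour minus control, of 72 tested genes in their order along chromosome 3, from 5 genes before S100a1 to 5 after S100a10 (bars, standard error; names, genes with adjusted p under 0.05). The changes of S100a6, Sprr1a, S100a11 and S100a10 stand out above a row of genes near 0, with S100a1, Lce1a2 and Them4 below it.

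The genes of proteins that S100 proteins bind inside cells moved in part. Of 17 measured partners, 6 rose, 1 fell and 10 did not pass, beside 5.60% risen and 4.96% fallen over all genes, with a median change of 0.56. Without control 1, 3 rose and 0 fell, and without control 2 the counts were 3 and 0. Anxa2, the annexin that holds S100a10 at the membrane, had log2 values of 6.49 and 6.25 in the controls and 10.62, 10.41 and 10.39 in the tumours, a change of 4.10 (SE 0.14, limma adjusted p = 0.000324). Anxa2 and S100a10 were thus both higher in every tumour than in either control, by at least 3.91 and 1.36. Their ratio as proteins was not measured.

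Anxa1, the partner of S100a11, rose by 1.72 (limma adjusted p = 0.0213), from 6.38 and 6.31 to 8.21, 8.48 and 7.49. Ahnak, a large scaffold that binds the complex of S100a10 and annexin A2, rose by 2.08 (limma adjusted p = 0.00342), and Anxa5, another annexin, by 2.47 (0.00308). Anxa6 and Anxa11 stood at −0.17 and −0.29 and did not pass (limma adjusted p = 0.535 and 0.544). Of the annexins in the list, those that rose were therefore Anxa1, Anxa2 and Anxa5.

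Myh9, a non-muscle myosin heavy chain bound by S100a4, rose by 1.58 (limma adjusted p = 0.00412), and Iqgap1, a cytoskeletal scaffold, by 2.49 (0.00125), while S100a4 itself did not pass. Cacybp, the partner of S100a6, stood at 9.80 and 9.69 in the controls and 9.78, 10.12 and 10.30 in the tumours, a change of 0.33 with overlapping groups (limma adjusted p = 0.339). With the mean of all its probe sets, Myh9 rose by 1.02 (0.0184). Without control 1 or control 2 the calls of Anxa1, Ahnak and Myh9 were lost (limma adjusted p between 0.0615 and 0.192). Those of Anxa2, Anxa5 and Iqgap1 held with any array left out.

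The genes of receptors and surface binding proteins for secreted S100 proteins were all higher in every tumour than in both controls. This held for 7 of 7, beside 21.1% of all genes, and 4 of them rose, beside 5.60% of all genes. The list's median change was 1.19, beside −0.02 over all genes. Mcam rose by 1.37 (limma adjusted p = 0.00792), Tlr4, the receptor of bacterial lipopolysaccharide, by 1.48 (0.0282), Cd36 by 1.89 (0.0363) and Bsg by 0.70 (0.0372). Ager, the classical S100 receptor RAGE, stood at 6.37 and 6.16 in the controls and 6.38, 6.44 and 6.52 in the tumours, a change of 0.18 (95% confidence interval −0.14 to 0.50) that did not pass (limma adjusted p = 0.465). The control means of Tlr4 (4.31) and of Emb (3.31), which did not pass, lay under the mean lower quartile of the control arrays, 4.34. The size of these differences is therefore uncertain. The Cd36 controls differed by 1.29, and its change was 1.24 without control 2 and 2.53 without control 1. All 4 calls were lost without control 1 or control 2 (limma adjusted p from 0.0521 to 0.249). The call of Bsg was also lost with arrays shifted to a common median (limma adjusted p = 0.0617). Those of Bsg and Cd36 were lost without tumour 1 or tumour 2 and that of Tlr4 without tumour 1 (0.0575 to 0.094). Other settings called more of the 7, with 6 risen without tumour 3 and 5 with array weights or with the replicate block.

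**Figure D4:**
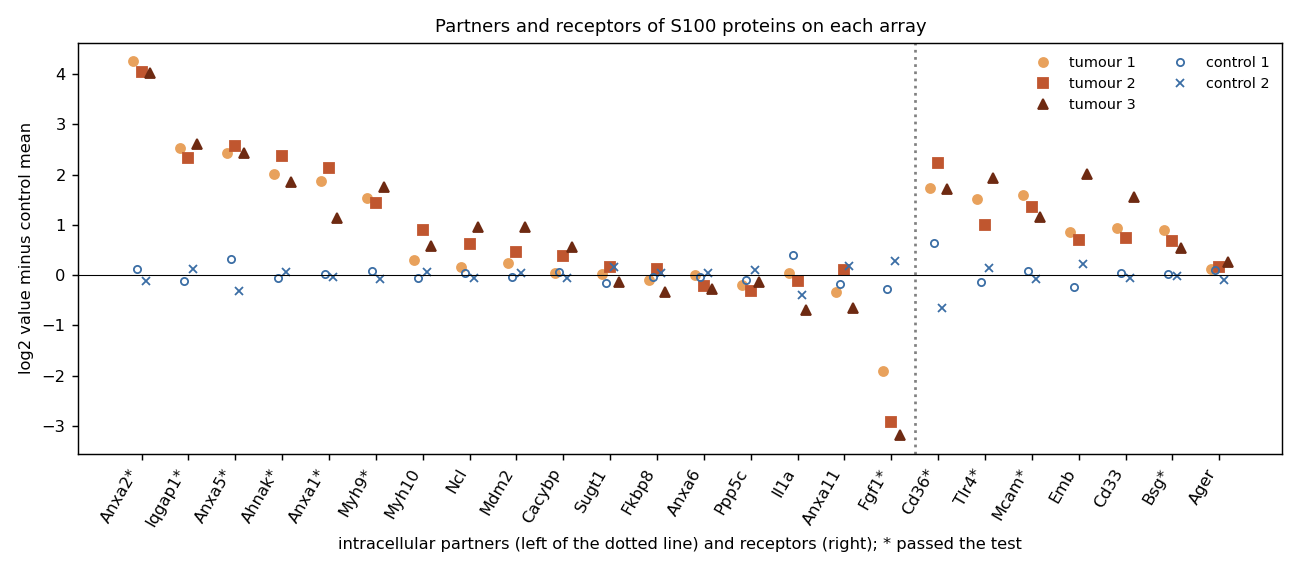
Log2 value minus the control mean, on each array, of 17 intracellular partners of S100 proteins and 7 receptors (orange to brown, tumours 1 to 3; blue, controls; stars, adjusted p under 0.05). Anxa2 is about 4 units up in all tumours, Fgf1 is down by 1.9 or more, and all receptors lie above both controls in every tumour.

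The plasminogen system was included because S100a10 presents plasminogen and tissue plasminogen activator at cell surfaces. Of 6 measured genes 0 passed the test in limma and 4 had an unadjusted p under 0.05. Plat, the tissue activator, had log2 values of 4.68 and 4.48 in the controls and 7.84, 6.05 and 9.24 in the tumours, a change of 3.13 with wide spread (SE 0.85, limma adjusted p = 0.0759). Plau (1.58, limma adjusted p = 0.053) and Plaur (1.62, 0.0978) were also above both controls in every tumour, and Plg, the liver-made precursor, was below them (−0.70, 0.0538). Tumour 3 held the highest value of Plat, Plau and Plaur, and without that tumour these 3 genes and Plg passed (limma adjusted p from 0.00412 to 0.044). Plau and Plg also passed with the dimmest 40% of genes left out (0.0444 and 0.0474), Plg with arrays brought to the same median (0.0466), Plau without tumour 1 (0.0494) and Plat without tumour 2 (0.0192). With array weights all 4 passed, and with the replicate block Plat, Plau and Plaur did.

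Other EF-hand genes served as a comparison outside the S100 family. Of 28 measured, 6 rose and 1 fell, beside 5.60% and 4.96% of all genes, with a median change of 0.23. Nucb2 and Calu, genes of endoplasmic reticulum and secretory pathway proteins, rose by 3.36 and 0.91 (limma adjusted p = 0.00035 and 0.011). The calpain genes Capns1 and Capn2 rose by 0.74 and 0.83 and Calm3, a calmodulin gene, by 0.81, while Ncald fell by 0.64 (limma adjusted p between 0.0181 and 0.0361 for these 4). Aif1, itself a macrophage marker, rose by 2.03 (limma adjusted p = 0.00714). Of these 7 calls, that of Nucb2 held with any array left out and the others were lost without control 1 or control 2 (limma adjusted p from 0.0902 to 0.236). Those of Calm3, Capns1, Capn2 and Ncald were lost without tumour 2 as well, and that of Ncald with the replicate block (0.0519 to 0.0875). Whether the S100 genes differ from other EF-hand genes in the share called was not tested.

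Macrophage markers moved in part. Of 17 markers, 9 rose and 0 fell, beside 5.60% and 4.96% of all genes, with a median change of 2.10. In every tumour, 12 of the 17 were above both controls, beside 21.1% of all genes. The list's mean log2 value was 5.98 and 6.22 in the controls and 7.54 to 8.34 in the tumours. Mmp12 rose by 4.54, Cd9 by 3.26, Cd68 by 3.02 and Lyz2 by 2.26 (limma adjusted p from 0.000144 to 0.00716). The call of Mmp12 held with any array left out, and the other 3 were lost without control 1 or control 2 (0.0602 to 0.0957). Without control 1 the list had 1 call, and without control 2 it had 1. The resident macrophage markers Clec4f, Vsig4, Cd5l, Timd4 and Marco overlapped between the groups, with changes from −0.80 to 0.36, and all 5 were above both controls in tumour 1 and below both in tumour 3. Vsig4, for example, had log2 values of 7.07 and 7.83 in the controls and 9.84, 7.34 and 4.55 in the tumours. Of 9 cholangiocyte markers, which biliary epithelium shares with some tumour cells, 0 were called by limma and 5 had an unadjusted p under 0.05. In every tumour, 7 of the 9 were above both controls and 1 was below both, beside 21.1% and 23.1% of all genes. Their median change was 0.53 and their mean was 4.86 and 4.89 in the controls and 5.58 to 5.66 in the tumours. Of 10 endothelial and 6 B and plasma cell markers 0 were called by limma, with medians of 0.07 and 0.02, and 1 and 2 had an unadjusted p under 0.05. The endothelial mean was 7.57 and 7.68 in the controls, 8.59 in tumour 1, 7.56 in tumour 2 and 6.53 in tumour 3. Over the 14 alternatives, 0 to 3 endothelial markers rose and 0 to 1 fell, 0 to 1 B and plasma cell markers rose, and 0 to 3 cholangiocyte markers rose. Over all genes, 5023 of 19938 had an unadjusted p under 0.05. The part of these cells in the S100 values was not tested.

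The genes most like each called S100 gene were found by the root mean square difference over the 5 arrays, after each gene was centred on its control mean. For S100a11 these were B4galt6, H2-Ab1 and H2-Aa, with differences of 0.26, 0.26 and 0.27 log2 units. The last 2 encode MHC class II chains. For S100a10 they were Myh9, Trim30a and Col4a2 (0.06, 0.07 and 0.07), and for S100a6 they were Sik1, Capg and Usp18 (0.08, 0.12 and 0.22). For S100a1 they were Pcmtd1, F9 and Gm4788 (0.07, 0.08 and 0.08), F9 being coagulation factor IX, made by hepatocytes. With 5 arrays and 19938 genes, such likeness is a description only.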

How the data were processed

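Transcript levels were measured on 5 Affymetrix arrays from 2 control livers and 3 Hdac3-null liver tumours. The deposited table holds 1 log2 value per probe set and array, and the submitters' processing notes name GCOS and RMA without versions. RMA corrects background, normalises by quantiles and summarises probes, which compresses large and dim differences. Its genome build is not given in the sources used.

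Of 28853 probe sets, 21789 had 1 gene symbol in the platform's annotation and gave 19938 genes. Probe sets with several symbols (1621) or none (5443) were left out. Tumour and control arrays were compared by limma 3.58.1 (lmFit, eBayes; R 4.3.3) on 3 residual and 2.98 prior degrees of freedom. Two-sided p-values were Benjamini-Hochberg adjusted over all genes, with a threshold of 0.05. An exact permutation test of 2 against 3 arrays cannot go below p = 0.1, so calls rest on the spread shared across genes. No filter on dim genes was used, and the lower quartile of an array served to mark dim values. The number of arrays limits the precision. Sequences are from RefSeq. Tables were joined with Python 3.11.15 and pandas 2.3.3, and figures drawn with matplotlib 3.10.9.

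The 10 genes, the lists and the motifs were chosen with earlier results of these data known. Named genes are the 10 members, the other S100 and S100-fused genes, Hdac3, and up to 4 called genes of smallest p per list and among the genes between the members. The rule adds the 3 genes most like each called member. Ager, Cd33, Emb, Cacybp and Them4 fall outside it, as do the uncalled or additional partners, EF-hand and plasminogen genes. So do the neutrophil, resident macrophage, stellate cell, fibroblast and hepatocyte genes without a call. All of these were picked once their values were known. Same-numbered arrays did not deviate together (Pearson r = 0.00 and −0.01 across genes for numbers 1 and 2), so numbers were not taken to pair mice.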

Additional observations from a re-analysis of the deposited data

Results flagged for a closer look

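The second S100a11 probe set, which the main comparison does not use, also stood above its control level, by 4.06 log2 units. Groups of 2 and 3 arrays were too small to test single arrays as outliers.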

How the results depend on the processing

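The 4 calls among the S100 genes and the 2106 over all genes were recomputed under 14 alternatives. Leaving out each array in turn gave between 1 and 4 called S100 genes and between 108 and 2719 genes in all, the lowest counts coming without a control (129 without control 1, 108 without control 2, and 1266 without tumour 2). S100a11 and S100a6 were the called S100 genes without control 1, and S100a11 the only one without control 2. A test without moderation, which uses each gene's own spread on 3 degrees of freedom, called 0 S100 genes and 18 genes in all (adjusted p for S100a11 0.0801), where limma called 4. Array weights called 3252 genes in all. Shifting every array to the same median gave 949 risen and 1275 fallen genes, against 1117 and 989. With the replicate block, 4 S100 genes and 2376 genes in all were called. Its changes are those of the arrays numbered 1 and 2, since number 3 exists only in the tumours. With the dimmest 40% of genes left out, S100a4, S100a6, S100a8, S100a9 and S100a14 were not tested. S100a11 changed by 3.69 to 4.07 and S100a10 by 1.42 to 1.62 over the alternatives, S100a6 by 1.71 to 2.56 and S100a1 by −1.55 to −1.06.

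Signs turned only for genes that were not called. With 1 array left out at a time, S100a9 ranged from −0.0555 to 0.2876, S100a14 from −0.5049 to 0.0154, S100a3 from −0.165 to 0.0851, S100a5 from −0.2427 to 0.0459, S100a7a from −0.2299 to 0.0078 and S100z from −0.0317 to 0.1106. In the same settings Crnn ranged from −0.1255 to 0.1059, Hrnr from −0.0502 to 0.2381 and Rptn from −0.0569 to 0.0224. S100z was −0.0585 with arrays shifted to a common median, −0.0102 with array weights and −0.0317 with the replicate block. Hrnr was −0.0041 with the median shift, and with quantile normalisation repeated Crnn was 0.0023 and Rptn 0.0301. The causes were not tested.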
